A study of Zea mays with 2 samples.

Results

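The genes described here carry descriptions of phenylpropanoid and flavonoid proteins, from phenylalanine ammonia-lyase to the enzymes that decorate anthocyanins. They were taken by words in the deposited gene description, with entries worded as cytochrome P450 or ubiquinone left out and a value of 1 or more required in at least 1 library. Of the 41406 genes listed, 65 matched by their description and 37 of these reached that level. RNA of maize (Zea mays) kernel endosperm at 12 days after pollination was sequenced in 1 library labelled dek40 and 1 labelled wild type. The labels give the genotypes as dek40 and wild type and nothing further on alleles or parent lines, while the series title and design name dek41. The mutant library is called dek40 here, after its own label, and neither genotype has a replicate, so no test of any difference was possible.

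Phenylpropanoids are made from the amino acid phenylalanine, which phenylalanine ammonia-lyase turns into cinnamic acid. From there a branch through methyltransferases and alcohol dehydrogenases leads to the monolignols of lignin, and a branch through chalcone synthase and chalcone isomerase leads to flavonoids and to the red and purple anthocyanins. In the maize kernel, anthocyanins are known from the aleurone, the outer layer of the endosperm, and other flavonoid pigments from the maternal pericarp.

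The label enzymes holds for most of the 37 genes with a qualification. A pair of them, the C1 protein and PAC1, are described as regulators of the anthocyanin genes and are not enzymes. The entry GRMZM2G090980 is described as a mannitol dehydrogenase as well as a putative cinnamyl alcohol dehydrogenase. Names such as dihydroflavonol-4-reductase or flavonol 4-sulfotransferase are the deposited descriptions, and the sources used here do not give the substrates of these maize proteins. The files describe 21245 genes and leave 20161 without a description, so pathway genes without a description are not analysed here.

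Levels are given as deposited, as FPKM (fragments per kilobase of a gene and per library size in mapped fragments) for the wild type and as RPKM (the like unit for reads) for dek40. Across all 25115 genes at 1 or more in both libraries the median dek40 value was 1.34-fold the wild-type value, a shift of 0.42 on the log2 scale. The dek40 values were therefore multiplied by 0.747 before ratios were formed. A log2 ratio compares scaled dek40 with wild type after adding a pseudocount of 1 to each value, a step that shrinks the differences of low genes. A gene is called higher or lower in dek40 where this ratio reached 2-fold and the gene stood at 1 or more in a library after scaling. Read numbers were inferred from the values as lower bounds, and the 95% intervals made from them cover counting error of the ratio without a pseudocount, so that for a low gene the log2 ratio can lie nearer to 0 than its interval. In whole endosperm RNA, fewer cells of a type and less RNA per cell cannot be told apart.

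Most of the 37 genes were weakly expressed in this tissue. Their median level was 2.36 FPKM in wild type against 3.53 RPKM in dek40, against 6.28 FPKM and 8.85 RPKM for the median of all 28178 genes that reached 1 after scaling. Below 5 in both libraries were 21 of the 37, and 14 reached 10 in at least 1. The highest in either library was caffeoyl-CoA O-methyltransferase 2 (GRMZM2G099363), which methylates a precursor of lignin, at 73.1 FPKM in wild type against 76.1 RPKM in dek40. Summed over the 37 genes the level was 259 FPKM in wild type against 395 RPKM in dek40, or 295 after scaling. That was 0.0180% of all summed values in the wild type and 0.0285% in dek40. The 5 genes highest in the wild type held 64.2% of the sum of the 37 there and 51.0% in dek40. At the threshold of the choice, the lowest of the 37 was the C1 protein with 1.03 RPKM in dek40, and the highest left out was an anthocyanidin 3-O-glucosyltransferase (GRMZM2G383404) with 0.968 FPKM in the wild type. The 28 matches below 1 in both libraries comprised 5 laccases, 4 phenylalanine ammonia-lyases, 4 decorating transferases, 3 dihydroflavonol reductases, 2 dirigent proteins, 2 flavonoid 3-monooxygenases and 1 gene in each of 8 further classes.

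**Figure D1:**
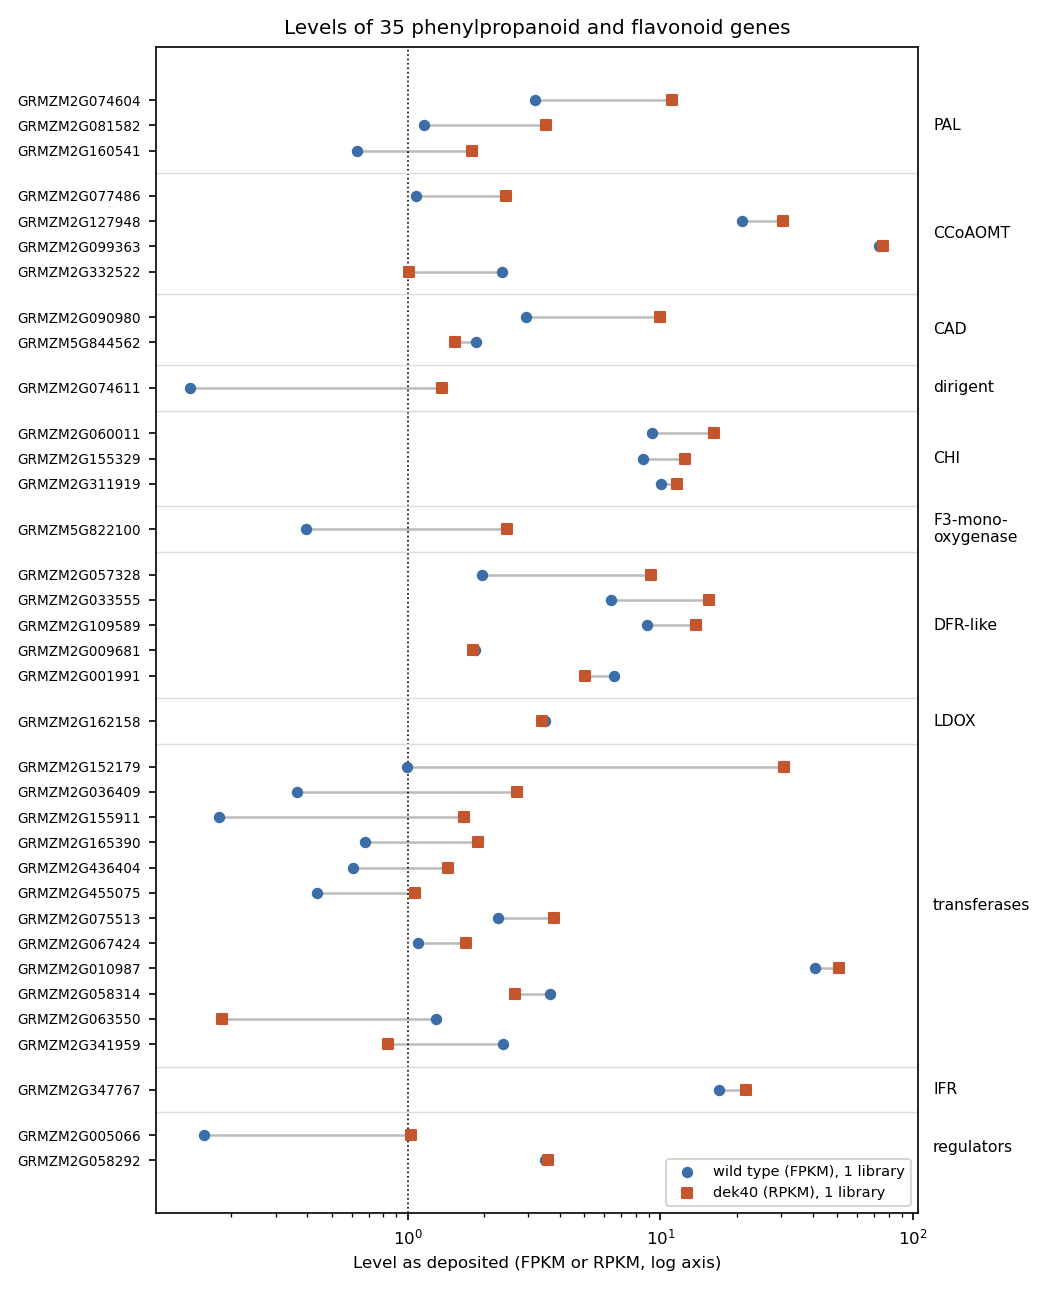
Level of 35 of the 37 genes in the wild-type library (FPKM, circles) and the dek40 library (RPKM, squares), as deposited, on a log axis, with 1 point per library and the dotted line at 1. The genes are ordered by class (PAL, phenylalanine ammonia-lyase; CCoAOMT, caffeoyl-CoA O-methyltransferase; CAD, cinnamyl alcohol dehydrogenase; CHI, chalcone isomerase; DFR, dihydroflavonol reductase; LDOX, leucoanthocyanidin dioxygenase; IFR, isoflavone reductase); the widest gap is that of the sulfotransferase gene GRMZM2G152179, at 0.991 and 30.7.

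The comparison asked how these genes stood in the endosperm of the mutant against the wild type. After scaling, 35 of the 37 still reached a level of 1, and of these 7 were higher in dek40, 2 were lower and 26 stayed within 2-fold. Among all genes 6.33% were higher and 4.99% lower by the same rule. The median log2 ratio of the 35 was 0.23, and that of all genes was 0.02. A 95% binomial interval over the 35 genes ran from -0.10 to 0.53. It treats genes as units and does not measure variation between libraries. Of the 7 higher genes 6 belong to the classes phenylalanine ammonia-lyase, cinnamyl alcohol dehydrogenase, flavonoid 3-monooxygenase, dihydroflavonol reductase and, with 2 genes, the decorating transferases. Both lower genes were decorating transferases.

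The level of 1 had a part in these counts. Through dek40 alone 10 of the 37 entered, among them 3 of the 7 higher genes, and 2 entered through the wild type alone, and these are the 2 lower ones. Such genes had to differ to be counted. Of the 10, 8 still reached the level after scaling, and 3 of 8 were higher, while 28.0% of all genes that entered through dek40 alone were higher. Over all 65 matches, with no minimum level, the median log2 ratio was 0.10. The 25 genes at 1 or more in both libraries held 4 higher and 0 lower, with a median of 0.11, while of all genes at that level in both 4.80% were higher and 4.42% lower. With values as deposited 11 genes were higher and 0 lower, so that all 11 calls were higher, against 7 of 9 after scaling, and 14.7% of all genes were then higher and 2.65% lower. When the libraries were scaled to equal sums outside the zeins, the higher genes numbered 9, the lower ones 0 and the median log2 ratio was 0.44. The additional 4 with values as deposited were a phenylalanine ammonia-lyase, a dihydroflavonol reductase, an anthocyanidin 3-O-glucosyltransferase and the dirigent gene. With a pseudocount of 5 in place of 1, 1 gene remained past 2-fold, the sulfotransferase GRMZM2G152179.

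**Figure D2:**
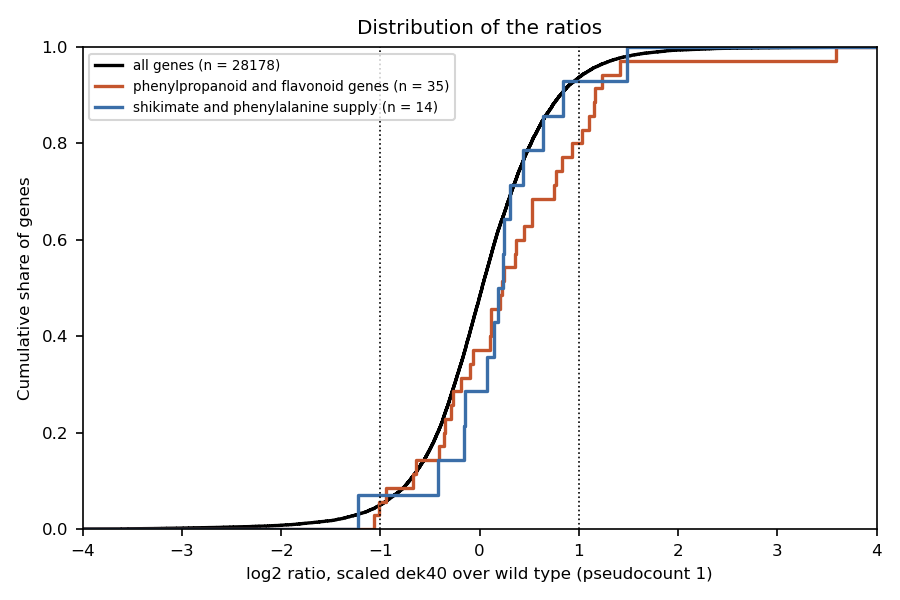
Cumulative share of genes (vertical axis) against the log2 ratio of scaled dek40 over wild type with a pseudocount of 1 (horizontal axis, cut at 4 in both directions), with dotted lines at 2-fold. The curve of the 35 phenylpropanoid and flavonoid genes lies to the right of that of all 28178 genes above a ratio of 0, and the 14 genes of shikimate and phenylalanine supply have a median of 0.21.

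Phenylalanine ammonia-lyase opens the pathway, and 3 of its genes were at this level, of which GRMZM2G160541 entered through dek40 alone and so had to stand higher there. The most abundant, GRMZM2G074604, with PAL1 among its RefSeq names, was at 3.18 FPKM in wild type against 11.1 RPKM in dek40. Its log2 ratio was 1.16, with an interval of 1.07 to 1.72 on at least 105 and 334 reads, and this was the 1 ammonia-lyase called higher. A further gene, GRMZM2G081582, stood at 1.16 FPKM against 3.53 RPKM, a log2 ratio of 0.75 and one of 1.07 as deposited. GRMZM2G160541 stood at 0.628 FPKM and 1.80 RPKM on at least 5 and 13 reads, too few to set its ratio apart from equality (-0.48 to 2.94). Another 4 genes of the same description lay below 1 in both libraries, between 0.0891 and 0.544 FPKM and between 0.0164 and 0.95 RPKM. GRMZM2G118345 and GRMZM2G170692 had log2 ratios of 0.18 and 0.29, and GRMZM2G063917 and GRMZM2G441347 of -0.11 and -0.36. Each of their counting intervals held 0, so no direction could be read from them. Summed over the 3 genes the level was 4.96 FPKM in the wild type and 12.3 in dek40 after scaling.

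Several of the 7 ammonia-lyase genes are neighbours in RefSeq's gene order. GRMZM2G081582 and GRMZM2G160541 lie next to each other with 0 genes between them, and GRMZM2G063917, which was below 1 in both libraries, is set apart from them by 1 and 2 genes. GRMZM2G118345 and GRMZM2G441347, both below 1, are adjacent too, and 2 genes lie between PAL1 and GRMZM2G170692. Neighbouring copies of 1 family can share reads, so the split between them is uncertain. The neighbours did not stand at one level: PAL1 was at 11.1 RPKM in dek40 and GRMZM2G170692 at 0.885 RPKM.

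The lignin branch showed a mixed picture. Caffeoyl-CoA O-methyltransferase, which acts on coenzyme A esters of the pathway, had 4 genes and 0 past 2-fold, and the median of their log2 ratios was -0.12. Caffeoyl-CoA O-methyltransferase 2 had a log2 ratio of -0.36 after scaling, with an interval of -0.49 to -0.24 on at least 1028 and 970 reads. As deposited the same ratio was 0.06, so its direction rests on the scaling. The gene with the symbol ccoaomt1 (GRMZM2G127948) was at 21.0 FPKM against 30.4 RPKM, a log2 ratio of 0.11 with an interval of -0.43 to 0.67. GRMZM2G332522 went from 2.36 FPKM to 1.01 RPKM, a log2 ratio of -0.94 that missed the 2-fold rule, and its neighbour GRMZM2G033952 was below 1 in both libraries. The fourth, GRMZM2G077486, stood at 1.07 FPKM against 2.45 RPKM, a log2 ratio of 0.45.

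Cinnamyl alcohol dehydrogenase reduces cinnamyl aldehydes to monolignols. Its brown midrib gene BM1 (GRMZM5G844562), named for the leaf colour of lignin mutants, was at 1.85 FPKM in wild type against 1.53 RPKM in dek40, a log2 ratio of -0.41 with an interval of -1.52 to 0.11. The gene described as mannitol or cinnamyl alcohol dehydrogenase, GRMZM2G090980, was at 2.94 FPKM and 10 RPKM. Its log2 ratio of 1.10 made it the 1 higher gene of this class, on at least 49 and 151 reads (interval 0.87 to 1.84).

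Dirigent proteins steer the coupling of monolignol radicals and laccases oxidise monolignols in the cell wall. The 1 dirigent gene at this level, GRMZM2G074611, was at 0.138 FPKM and 1.37 RPKM, on as few as 1 and 9 reads. This gene entered through dek40 alone and so had to stand higher there. Its log2 ratio was 0.83 after scaling, with an interval of 0.04 to 8.34, and 1.06 as deposited. All 5 laccase entries were below 1 in both libraries, with 0.266 FPKM and 0.328 RPKM as their highest values, so nothing about laccase was detectable beyond these low levels.

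**Figure D3:**
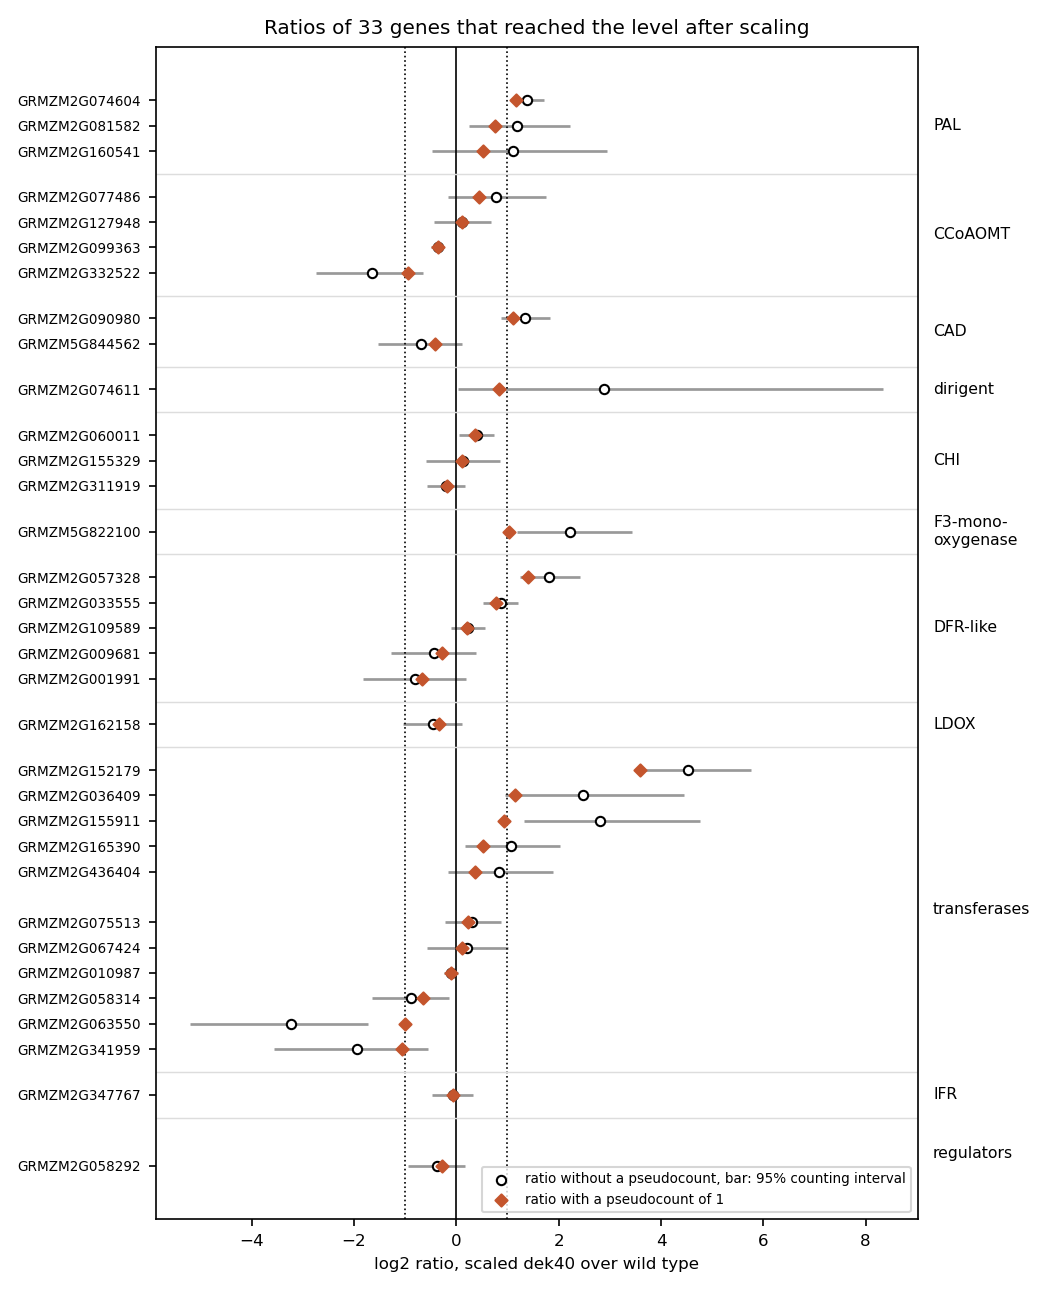
Log2 ratio of scaled dek40 over wild type for 33 of the 35 genes that reached a level of 1 after scaling, with a pseudocount of 1 (diamonds) and without one (open circles), in the same class order as the levels. Grey bars are 95% counting intervals of the ratio without a pseudocount, dotted lines mark 2-fold, and the bar of the dirigent gene GRMZM2G074611, on as few as 1 and 9 reads, is the longest.

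On the flavonoid branch the described entry enzyme lay below the level. Chalcone synthase C2 (GRMZM2G422750), the colorless2 gene that makes the chalcone from which flavonoids derive, was at 0.752 FPKM in wild type against 0.0276 RPKM in dek40. Its smallest read numbers were 30 in the wild type and 1 in dek40, and the interval of its ratio ran from -10.54 to -2.60 on the log2 scale. Chalcone isomerase, which closes the chalcone ring, had 3 genes between 8.56 and 10 FPKM in the wild type and between 11.6 and 16.3 RPKM in dek40, and 0 of them were past 2-fold. The gene chi1 (GRMZM2G155329) had a log2 ratio of 0.11, chalcone isomerase 3 (GRMZM2G311919) one of -0.18, and GRMZM2G060011 one of 0.36. Of these, the interval of GRMZM2G060011 alone (0.06 to 0.74) left out 0. These 3 isomerase genes thus stood above the synthase gene by level per length in both libraries. A further isomerase entry, GRMZM2G175076, was below 1 in both, at 0.469 FPKM and 0.207 RPKM. It stood below the synthase gene in the wild type and above it in dek40.

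Flavonoid 3-monooxygenase adds hydroxyl groups to the flavonoid ring. GRMZM5G822100, described by this name, was at 0.395 FPKM in wild type against 2.47 RPKM in dek40, a log2 ratio of 1.03 with an interval of 1.19 to 3.43 on at least 9 and 51 reads. It was higher by the 2-fold rule and entered through dek40 alone.

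Dihydroflavonol reductase makes the colourless precursors of anthocyanins. Of 5 genes with this description 1 was higher and 0 were lower, and their median log2 ratio was 0.20. The higher one, GRMZM2G057328, was at 1.97 FPKM in wild type against 9.21 RPKM in dek40. Its log2 ratio was 1.41 with an interval of 1.24 to 2.41 on at least 32 and 136 reads, the second highest of the 35. GRMZM2G033555 went from 6.39 FPKM to 15.6 RPKM, a log2 ratio of 0.77 after scaling and 1.17 as deposited. GRMZM2G109589, the most abundant by the mean of both libraries, stood at 8.83 FPKM and 13.8 RPKM, with a log2 ratio of 0.20. The other two, GRMZM2G001991 and GRMZM2G009681, had log2 ratios of -0.67 and -0.27 and intervals that held 0.

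Leucoanthocyanidin dioxygenase, which makes the coloured anthocyanidins, was represented by description among the 37 genes by GRMZM2G162158 alone, at 3.49 FPKM and 3.38 RPKM. Its log2 ratio was -0.35 with an interval of -1.04 to 0.10, and -0.04 as deposited. The pigment locus a2 (GRMZM6G474234), an anthocyanin pathway dioxygenase described as uncharacterized, lay outside the 37 genes. It stood at a log2 ratio of 0.48 (interval 0.24 to 0.82). The leucoanthocyanidin reductase entry GRMZM2G097841 was below 1, at 0.248 FPKM and 0.342 RPKM. The isoflavone reductase entry GRMZM2G347767 stood at 17.1 FPKM against 21.7 RPKM, a log2 ratio of -0.07 with an interval of -0.48 to 0.33.

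The decorating transferases add sugars, acyl groups or sulfate to flavonoids and anthocyanins. They were the largest class, with 12 genes, of which 11 reached the level after scaling. The class held 2 higher and 2 lower genes around a median log2 ratio of 0.23. Both higher genes entered through dek40 alone and both lower ones through the wild type alone, so each had to differ in its direction as deposited. GRMZM2G165390, GRMZM2G155911, GRMZM2G436404 and GRMZM2G455075 also entered through dek40 alone, so the level had a part in the median too. The widest difference of all 37 genes was that of a gene described as flavonol 4-sulfotransferase, GRMZM2G152179, at 0.991 FPKM in wild type against 30.7 RPKM in dek40. Its log2 ratio was 3.59, or 12.0-fold with the pseudocount, on at least 8 and 225 reads and with an interval of 3.53 to 5.76. It was the 1 gene of the 35 past 4-fold in either direction, where 0.628% of all genes were 4-fold higher and 0.791% 4-fold lower. This gene kept a log2 ratio of 2.22 with a pseudocount of 5. The other gene of this description, GRMZM2G341959, went the other way, from 2.39 FPKM to 0.832 RPKM, with a log2 ratio of -1.06 from no fewer than 19 and 6 reads. With the pseudocount its ratio was -0.89 as deposited and so within 2-fold there. The interval of its scaled ratio without a pseudocount ran from -3.56 to -0.56.

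Among the glucosyltransferases the most abundant, an anthocyanidin 5,3-O-glucosyltransferase (GRMZM2G010987), was at 40.8 FPKM in wild type against 50.9 RPKM in dek40. Its log2 ratio was -0.10, with an interval of -0.23 to 0.03 on at least 922 and 1042 reads, and 0.31 as deposited. The bronze1 gene BZ1 (GRMZM2G165390), whose enzyme glucosylates anthocyanidins into stable pigments, was at 0.677 FPKM against 1.89 RPKM, a log2 ratio of 0.52 with an interval of 0.16 to 2.03. The further anthocyanidin 5,3-O-glucosyltransferases spread in both directions. GRMZM2G036409 rose in value from 0.364 FPKM to 2.71 RPKM (log2 ratio 1.15, on at least 4 and 27 reads) and was called higher. GRMZM2G063550 went from 1.29 FPKM to 0.184 RPKM (log2 ratio -1.01, on at least 31 and 4 reads) and was called lower. As deposited it was at -0.95 with the pseudocount, within 2-fold. The interval of its scaled ratio without a pseudocount ran from -5.20 to -1.73. GRMZM2G058314 had a log2 ratio of -0.64 and an interval of -1.64 to -0.15. GRMZM2G155911, an anthocyanidin 3-O-glucosyltransferase at 0.179 FPKM and 1.67 RPKM, had a log2 ratio of 0.93 after scaling and 1.18 as deposited.

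The acyltransferases of anthocyanin were low in both libraries. GRMZM2G075513 stood at 2.27 FPKM against 3.78 RPKM, a log2 ratio of 0.23. GRMZM2G436404, at 0.609 FPKM and 1.45 RPKM, had one of 0.37, and RefSeq places it in the same gene as GRMZM2G341253, which was below 1 in both libraries at 0.703 FPKM and 0.878 RPKM. The identifiers may therefore split 1 gene. A flavonol glucosyltransferase (GRMZM2G067424) was at 1.10 FPKM and 1.70 RPKM with a log2 ratio of 0.11. The anthocyanidin 5,3-O-glucosyltransferase GRMZM2G455075, at 0.439 FPKM and 1.06 RPKM, fell below the level after scaling, as the C1 gene did.

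**Figure D4:**
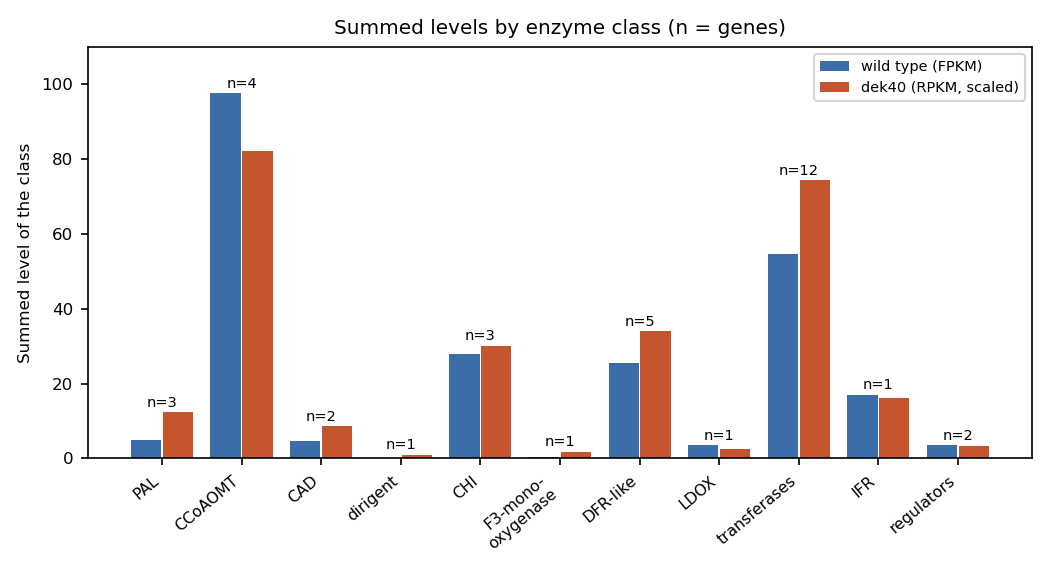
Summed level of the genes of 11 classes in the wild type (FPKM) and in dek40 (RPKM times the scaling factor of 0.747), with the number of genes above the bars and 1 library per bar. The methyltransferases of caffeoyl-CoA sum to 97.6 and 82.1, the phenylalanine ammonia-lyases to 4.96 and 12.3, and the decorating transferases to 54.8 and 74.4.

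By class the summed levels moved unevenly. The caffeoyl-CoA methyltransferases summed to 97.6 FPKM in the wild type and to 82.1 in dek40 after scaling, against 110 RPKM as deposited. The decorating transferases summed to 54.8 FPKM and 74.4 after scaling, and 1 gene, the sulfotransferase GRMZM2G152179, held 23.0 of the latter. The 5 dihydroflavonol reductases summed to 25.6 FPKM and 34.0, and the 3 chalcone isomerases to 27.8 FPKM and 30.2.

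The regulators were near the limit of detection or close to the wild type. The C1 gene (GRMZM2G005066), a MYB factor that turns on the anthocyanin genes in the aleurone, was at 0.156 FPKM in wild type against 1.03 RPKM in dek40, on as few as 1 and 6 reads. Its interval ran from -0.74 to 7.83, so no difference was detectable at this depth. The Lc protein gene (GRMZM5G822829), a helix-loop-helix partner of C1 with the symbol r1, was below 1 at 0.105 FPKM and 0.0384 RPKM. PAC1 (GRMZM2G058292), a WD40 protein of the same pathway, stood at 3.50 FPKM against 3.59 RPKM, a log2 ratio of -0.29 with an interval of -0.95 to 0.18.

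Beyond the 37 genes, the remaining pathway was read from lists of descriptions and symbols. The supply of phenylalanine through the shikimate pathway had 15 genes, of which 14 were measured at the level. Of these, 1 was higher, 1 was lower and the median log2 ratio was 0.21. A binomial interval of this median over the 14 genes ran from -0.16 to 0.64. It treats genes as units and does not measure counting error or variation between libraries. The higher one was a shikimate kinase family gene (GRMZM2G119249), at 6.93 FPKM and 28.3 RPKM and a log2 ratio of 1.48. The lower one was a chorismate mutase (GRMZM2G124365), an enzyme at the branch to phenylalanine and tyrosine, at 69.3 FPKM and 39.0 RPKM and a log2 ratio of -1.22. Another chorismate mutase, GRMZM2G116087, stood at 21.0 FPKM against 44.5 RPKM, a log2 ratio of 0.64. RefSeq gives these identifiers the same pair of gene entries, so the split of reads between them is uncertain. The first enzyme of the shikimate pathway, described as phospho-2-dehydro-3-deoxyheptonate aldolase 1 (GRMZM2G117707), had a log2 ratio of 0.19. The list also took GRMZM2G150616, described as isochorismate synthase and carrying the symbol vdac1a of a mitochondrial channel, at 0.84.

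The hydroxylases of the P450 type had 2 genes outside the 37 and 0 past 2-fold. CYP84A33v1 (AC210173.4_FG005), of the ferulate hydroxylase family of the lignin branch, was at 1.5 FPKM and 4.99 RPKM, with a log2 ratio of 0.92 after scaling and 1.26 as deposited. A flavonoid 3-monooxygenase worded as a P450 (GRMZM5G830329) was at -0.18. Of the pigment loci by symbol, a2 (GRMZM6G474234) is an anthocyanin pathway dioxygenase. It was at 8.21 FPKM and 15.8 RPKM with a log2 ratio of 0.48 (interval 0.24 to 0.82). The bronze-2 gene bz2 (GRMZM2G016241), a glutathione S-transferase that helps bring anthocyanins into the vacuole, was at 6.90 FPKM and 9.78 RPKM with one of 0.07. The repressor myb31 of lignin genes matched 2 identifiers, GRMZM2G050305 at 0.935 FPKM and 3.01 RPKM (log2 ratio 0.75) and GRMZM5G892094 at 0.263 FPKM and 0.868 RPKM. GRMZM2G058432 shares the symbol pac1, is described as the mitochondrial import protein Tim13 and stood at 0.63.

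The tissue label was read against marker genes. Endosperm markers, mostly zeins, the storage proteins of the endosperm, summed to 239340 FPKM in wild type against 37438 RPKM in dek40. By the 2-fold rule 26 of 26 were lower in dek40, the median of their log2 ratios being -3.14. Of the aleurone markers, where anthocyanin genes are known to act, Nkd1 (GRMZM2G129261) was lower at -1.04 and Nkd2 (GRMZM5G884137) was at -0.24, and al9 was not matched. Basal transfer layer markers were lower in 6 of 7 cases, and embryo markers were lower in 3 of 8 and higher in 0, leaving out a hemoglobin gene that shares the symbol GLB1. Genes of green tissue, taken by chlorophyll-binding and photosystem descriptions, summed to 43.3 FPKM and 30.0 RPKM over 21 genes. Of 11 measured at the level, 3 were lower and 1 was higher. The pericarp regulator p1 was not matched, so the maternal pericarp had no marker of its own here. These shifts of tissue markers move with the comparison, and their part in the values of the 37 genes was not tested.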

How the data were processed

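Each genotype had 1 endosperm library. The authors deposited 1 value per gene, headed RPKM for dek40 and FPKM for the wild type, per the file headers. The submitters' processing notes name Bowtie2 2.1.0 and B73 RefGen v3; the counter, annotation and filters are not stated there, and whether both headings stand for a single unit is unknown. Both files list the same 41406 genes, 0 of them at 0.

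For every gene the ratio of the deposited values, divided by 1.10203, was written as the simplest fraction of whole numbers. The relative tolerance was 1e-12. Any ratio can be written in this way, so the step does not by itself check the read numbers. The constant 1.10203 gave totals of 15669149 (wild type) and 14218436 (dek40), up to a common factor. The smallest whole reads served as lower bounds, raised to give a whole gene length where possible (all but 28 genes), and held 86.3% and 86.1% of the totals. They fed exact Clopper-Pearson 95% intervals, and no count test was run. The steps were tested on simulated data.

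Scaling, pseudocount, level and fold rule are given with the results. Classes and lists of pathway and marker genes came from words and symbols. The 37 genes and the lists were chosen with earlier results of these data known. Genes were named by rule: the most abundant of each class, those past 4-fold, the 10 highest and 10 lowest ratios at 10 or more, and pigment, brown midrib and regulator symbols. The values of 2 of the 37 genes are not reported here. Further genes were named for completeness after their values were seen, as were the pathway genes. Symbols came from the RefSeq gene table on Zm-B73-REFERENCE-NAM-5.0, which matched 34 of the 37. The order of neighbouring genes rests on the coordinates of that build, which is not the build named in the processing notes. Protein and promoter sequences were not used here. Python 3.11.15, pandas 2.3.3, NumPy 2.4.6, SciPy 1.17.1 and Matplotlib 3.10.9 were used.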

Additional observations from a re-analysis of the deposited data

How the results depend on the processing

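With values as deposited the count of higher genes was 11, that of lower genes 0 and the median log2 ratio 0.59. The count of lower genes was also 0 with scaling to equal sums outside the zeins (9 higher, median 0.44), with a value of 5 or more required in either file, and with a pseudocount of 5, where the count of higher genes was 1 and the median 0.12. Scaling over genes at 10 or more and a pseudocount of 0.1 each moved the 2 counts by no more than 1.5 times. The same held for leaving out laccases, dirigent, isoflavone reductase and unclassed entries, and for requiring a counting interval that left out equality. Dropping the minimum level could not change the counts. With a pseudocount of 1, a gene below 1 in both libraries cannot reach 2-fold. Of 63 genes of the pathway followed singly, 11 were past 2-fold, and 0 of these changed direction under the 3 alternatives for scaling. That was fixed in advance: these alternatives raise a log2 ratio by at most 0.42, too little to reverse a 2-fold difference. No paired analysis was possible because each genotype has 1 library, and no library could be left out. Genes near a level of 1 rest on few reads, which limits what can be said of their ratios.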
